A study of Mus musculus with 9 samples.

Results

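Collagens and laminins are the structural chains of the extracellular matrix, and the abundance of their mRNAs was followed here through a CELF2 pull-down from newborn mouse cortex. Members were all protein-coding genes whose symbol is Col, a number, a and a number, or starts with Lama, Lamb or Lamc and a number. This gave 55 genes, 44 collagen and 11 laminin genes, out of 18559 protein-coding genes with a count, and 54 of the 55 passed the filter on low counts that left 15267 genes for testing. Col17a1, a transmembrane collagen of epithelial junctions, did not pass, with 0.160 to 1.39 CPM (counts per 1e+06 counts of protein-coding genes, after scaling) over the 9 libraries. No collagen or laminin gene was called enriched in CELF2-KI RIP over both controls, where 7.58% of all tested genes were, and the count was 1 when curated (NM) RefSeq transcripts alone were summed and 1 without CELF2-KI RIP replicate 1.

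RNA immunoprecipitation-sequencing (RIP-seq) recovers the RNA that comes down with a protein. All 9 libraries came from the cytoplasmic fraction of the cortex of mice at postnatal day 0 that were heterozygous for the Celf2 knock-in (KI) allele R493H, so no library carried the wild-type genotype. The 3 groups of 3 libraries were RIP with an antibody against CELF2 (CELF2-KI RIP), RIP with control IgG (IgG RIP), and input, an aliquot kept before the antibody was added. The antibody was 10 µg per RIP, left for 3 hours, and the labels call the libraries biological replicates but do not say how many animals each holds. The cortex was not sorted, so the RNA is that of neurons, glia and the cells of vessels and meninges together, and fewer cells of a type and less RNA per cell cannot be told apart in it.

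Collagen chains assemble in threes into a triple helix in the endoplasmic reticulum, with hydroxylases and chaperones specific to the process, and are secreted as fibrils, networks or fibril-associated molecules, while a few stay in the plasma membrane. Laminins are trimers of an alpha, a beta and a gamma chain and, with the type IV collagen network, form basement membranes. In the developing cortex these are found at the pial surface, where radial glial endfeet attach, and around blood vessels, and fibrillar collagens are made largely by fibroblasts of the meninges. Their mRNAs are translated on the endoplasmic reticulum.

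Total estimated counts were 15919600 to 20052716 in CELF2-KI RIP, 17365561 to 28773130 in IgG RIP and 69125700 to 105116427 in input, of which protein-coding genes held 9347321 to 16840312 in the RIP libraries and 55250740 to 78514685 in input. rRNA and its 45S precursor held 35.0%, 33.0% and 10.98% of the counts in IgG RIP replicates 1, 2 and 3, 1.44% to 1.78% in CELF2-KI RIP and 1.44% to 2.28% in input. CPM were therefore taken over protein-coding genes, with TMM scaling. Celf2 mRNA itself was at 304, 278 and 305 CPM in input, 267, 231 and 199.8 CPM after IgG RIP and 469.7, 797 and 647 CPM after CELF2-KI RIP. These are levels of the mRNA and do not measure how much CELF2 protein was pulled down. The 3 CELF2-KI RIP libraries stood above all 6 controls for Celf2, at log2 changes of 1.46 against IgG RIP and 1.11 against input.

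Several members lie next to each other in the genome, and the Col4a1 and Col4a2 genes share their start. Both encode chains of the most widespread type IV collagen and are transcribed in opposite directions from chromosome 8 (RefSeq, GRCm38.p6), Col4a1 on the minus strand at chr8:11198423-11312889 and Col4a2 on the plus strand at chr8:11312805-11449287, with 85 bases of overlap between the gene models. The stretch common to the promoter windows of both genes (250 bases before to 50 after each start) is shown because the mRNAs of this pair are compared with each other further on. It runs from chr8:11312777-11312854 on the plus strand and is 78 bases long. The 22 capitals run from the Col4a2 start (chr8:11312805) to the Col4a1 start that its window uses (chr8:11312826). That start lies inside the Col4a1 gene model, which ends at chr8:11312889, so the capitals are only part of the 85 bases of overlap:
Col4a1 and Col4a2 shared start: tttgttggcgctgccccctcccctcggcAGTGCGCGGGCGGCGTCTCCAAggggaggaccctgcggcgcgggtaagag
A GC box (GGGCGG on either strand) lies within the capitals, while neither CCAAT nor TATAAA was found on either strand of the 78 bases. Over the promoter windows available for the members (44 windows of 40 genes), GGGCGG was present in 26 (59.1%), against 35.7% of all 32851 windows, CCAAT in 14 (31.8%, against 37.4%) and TATAAA in 5 (11.4%, against 13.6%). The presence of these letters is a description and does not show binding of a factor. Col4a4 and Col4a3 on chromosome 1 overlap by 114 bases in the same head-to-head way, and Col4a6 and Col4a5 on chromosome X are 1274 bases apart. How strand was set in the counting is not given in the sources used here, so reads from the bases shared by such neighbours cannot be assigned with certainty.

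Among fibrillar collagens, the chains of banded fibrils of skin, bone, cartilage and meninges, Col1a1 and Col1a2 were the members with the highest CPM of the class in input. Col1a1, the major chain of type I collagen, measured 238, 340.4 and 333 CPM in input, 493, 687 and 616 CPM after IgG RIP and 369, 544 and 629 CPM after CELF2-KI RIP. Col1a2, the other chain of type I collagen, measured 236, 348 and 343 CPM in input, 375, 549 and 585 CPM after IgG RIP and 462, 691 and 844 CPM after CELF2-KI RIP. Both chains were higher in each RIP library than in the input library of the same number, and the CELF2-KI and IgG RIP ranges overlapped for both. Col3a1, the type III chain of distensible tissues and vessel walls, measured 171, 280.5 and 284 CPM in input, 456, 710.3 and 705 CPM after IgG RIP and 301, 411 and 571 CPM after CELF2-KI RIP, with every RIP library above every input library. The other fibrillar members spanned 66.1 to 196 CPM over the 9 libraries for Col5a1, 50.3 to 125.1 for Col5a2, 15.1 to 38.4 for Col2a1, 8.95 to 33.0 for Col11a1, 5.43 to 57.1 for Col11a2, 3.21 to 13.5 for Col27a1, 3.06 to 12.1 for Col5a3 and 1.13 to 8.82 for Col24a1.

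Type IV collagens form the sheet of basement membranes. Col4a1 measured 312, 471 and 488 CPM in input, 464, 668 and 738 CPM after IgG RIP and 411, 462 and 683 CPM after CELF2-KI RIP, and the 3 groups overlapped. Col4a2 measured 290.3, 413 and 468 CPM in input, 553, 782 and 856 CPM after IgG RIP and 493, 590.1 and 783 CPM after CELF2-KI RIP, and here every RIP library exceeded every input library. Col4a5 spanned 46.1 to 94.5 CPM and Col4a6 18.1 to 30.8 CPM, while Col4a3 and Col4a4, chains of the mature kidney basement membrane, stayed between 0.215 and 4.93 CPM. Collagen VI forms beaded microfilaments outside cells, and its Col6a1 chain measured 55.2, 75.8 and 91.9 CPM in input, 76.3, 101 and 107 CPM after IgG RIP and 59.1, 46.4 and 78.1 CPM after CELF2-KI RIP. Its larger chain Col6a3 measured 53.9, 78.1 and 92.4 CPM in input, 111, 171 and 225 CPM after IgG RIP and 89.9, 125.3 and 156 CPM after CELF2-KI RIP. The remaining collagen VI chains spanned 42.2 to 90.6 CPM for Col6a2 and 0.159 to 6.74 CPM for Col6a4, Col6a5 and Col6a6.

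Laminin chains were measured at all 3 positions of the trimer. Lamc1, the gamma chain of most laminins, measured 197, 245 and 281 CPM in input, 318, 379 and 459 CPM after IgG RIP and 299, 375 and 474 CPM after CELF2-KI RIP. Lamb1, the beta chain of embryonic laminins, measured 144, 175 and 183 CPM in input, 241, 269 and 348 CPM after IgG RIP and 208, 200.1 and 241 CPM after CELF2-KI RIP. Lamb2, the beta chain of synaptic and mature vascular laminins, measured 93.3, 109.6 and 122 CPM in input, 201, 238 and 268 CPM after IgG RIP and 170.4, 149 and 201 CPM after CELF2-KI RIP. For these 3 chains no RIP library fell to the level of any input library. Lama2, the alpha chain of muscle and brain vessel laminins, spanned 50.0 to 164 CPM over the 9 libraries, and Lama3 and Lamb3, chains of epithelial laminins, spanned 0.932 to 11.9 and 0.287 to 1.19 CPM.

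**Figure D1:**
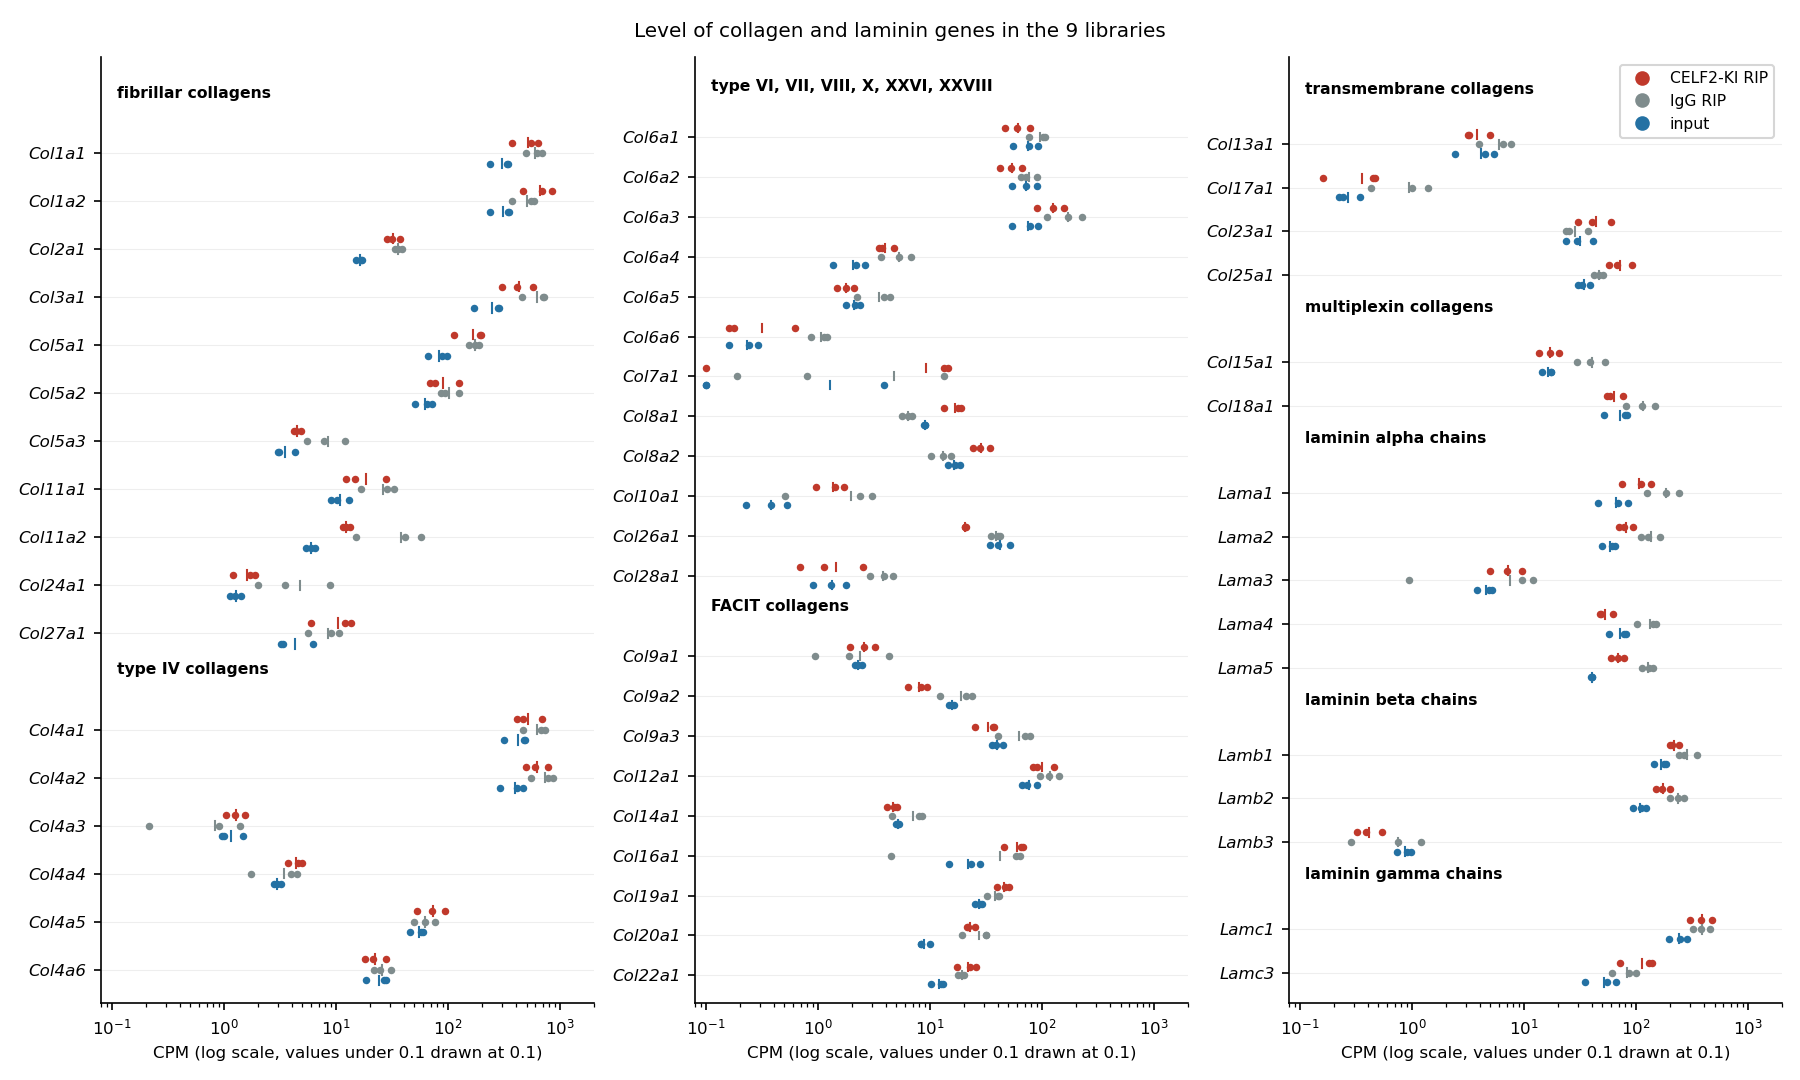
CPM of 54 of the 55 collagen and laminin genes (x axis, log scale) by class, with a point per library, a short line at the mean of 3 libraries, and colours for CELF2-KI RIP, IgG RIP and input. Col1a1, Col1a2, Col4a1 and Col4a2 lie at 236 CPM or more in every library. The mean of input lies to the left of both RIP means for 37 of the 54 tested members, a count that was not made over all tested genes.

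The comparison of CELF2-KI RIP with IgG RIP asks which mRNAs came down with CELF2 beyond what a control antibody recovers. A gene was called at a false discovery rate (FDR) under 0.01 over all tested genes and at least a 2-fold change in edgeR's quasi-likelihood test. Of 54 members 2 were called higher, where 13.4% of all tested genes were, and 4 were called lower, where 13.6% of all were. The median log2 fold change of the members was -0.32, against -0.06 over all tested genes. Estimates above 0 were found for 15 of 54 members, against 7324 of all 15267 tested genes. At an unadjusted p under 0.05, 3 members were higher (5.56% of members, against 30.6% of all tested genes) and 20 were lower (37.0%, against 29.8%).

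The 2 members called higher than IgG RIP were the chains of type VIII collagen, a short-chain, network-forming collagen of vessel walls and the corneal endothelial basement membrane. Col8a1 (chr16:57624256-57754737) measured 8.98, 8.97 and 8.77 CPM in input, 6.88, 5.65 and 6.31 CPM after IgG RIP and 13.3, 18.7 and 17.8 CPM after CELF2-KI RIP. Col8a2 (chr4:126286794-126314330) measured 14.3, 18.4 and 16.8 CPM in input, 10.2, 15.5 and 13.1 CPM after IgG RIP and 27.8, 24.1 and 34.0 CPM after CELF2-KI RIP. For both genes each CELF2-KI RIP library exceeded the 6 controls. The log2 fold change over IgG RIP was 1.40 ± 0.18 (SE, adjusted p = 0.000102, edgeR) for Col8a1 and 1.15 ± 0.20 (adjusted p = 0.000675, edgeR) for Col8a2. Over input it was 0.90 ± 0.17 (adjusted p = 0.00109, edgeR) and 0.80 ± 0.19 (adjusted p = 0.00464, edgeR), under the 2-fold threshold. In IgG RIP both chains were lower than in input by estimate, at -0.50 ± 0.17 and -0.36 ± 0.19, and neither was called. With scaling by total counts, which lowers the median of all genes over IgG RIP from -0.06 to -0.42, Col8a2 stood at 0.79 and was no longer called, while Col8a1 still was.

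The 4 members called lower than IgG RIP came from 4 classes. Lama4 (chr10:38965515-39110188), the alpha chain of endothelial laminin-411, measured 57.4, 77.1 and 81.1 CPM in input, 102, 142 and 152 CPM after IgG RIP and 48.1, 47.0 and 61.6 CPM after CELF2-KI RIP, a log2 change of -1.34 ± 0.19 over IgG RIP (adjusted p = 0.000218, edgeR). Col15a1 (chr4:47207655-47313167), a multiplexin of the outer face of vascular basement membranes, measured 14.4, 17.4 and 17.2 CPM in input, 52.3, 38.8 and 29.7 CPM after IgG RIP and 13.7, 16.9 and 20.3 CPM after CELF2-KI RIP, a log2 change of -1.25 ± 0.22 over IgG RIP (adjusted p = 0.00088, edgeR). For these genes the CELF2-KI RIP values overlapped those of input, and IgG RIP stood apart from both.

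Col9a2 (chr4:121039566-121055325), a chain of the cartilage-type fibril-associated collagen IX, measured 14.7, 16.2 and 15.7 CPM in input, 20.7, 23.6 and 12.2 CPM after IgG RIP and 8.32, 6.31 and 9.37 CPM after CELF2-KI RIP. Its CELF2-KI RIP libraries lay below all 6 controls, with log2 fold changes of -1.23 ± 0.25 over IgG RIP (adjusted p = 0.00177, edgeR) and -0.96 ± 0.24 over input (adjusted p = 0.00618, edgeR), the latter just inside 2-fold. Col11a2 (chr17:34038919-34066684), a chain of the fibril-nucleating collagen XI, measured 5.94, 6.47 and 5.43 CPM in input, 57.1, 40.7 and 15.0 CPM after IgG RIP and 11.4, 12.2 and 13.4 CPM after CELF2-KI RIP. Its log2 fold change over IgG RIP was -1.61 ± 0.38 (adjusted p = 0.00463, edgeR) and rested on IgG RIP replicates 1 and 2. With replicate number as a block Col11a2 was not called, leaving 3 members lower. When the curated (NM) transcript rows alone were summed, its change was 0.43 in the other direction and not called. Col11a2 has 16 transcript rows in the table, and the share of its counts on curated rows varied from 0% to 46.5% between libraries.

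Just short of the threshold over IgG RIP stood Lama5 at -0.90 ± 0.13 (adjusted p = 0.000207, edgeR), Col26a1 at -0.92 ± 0.16, Col9a3 at -0.93 ± 0.24 and Lama2 at -0.73 ± 0.18, each under an FDR of 0.01 and under 2-fold. Col6a6, Col24a1 and Col28a1 had estimates of -1.70 ± 0.62, -1.59 ± 0.51 and -1.41 ± 0.48 at levels of 0.159 to 8.82 CPM, and were not called. Without IgG RIP replicate 3, 8 members were called lower in place of 4. Without any 1 of the input libraries 7 were.

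**Figure D2:**
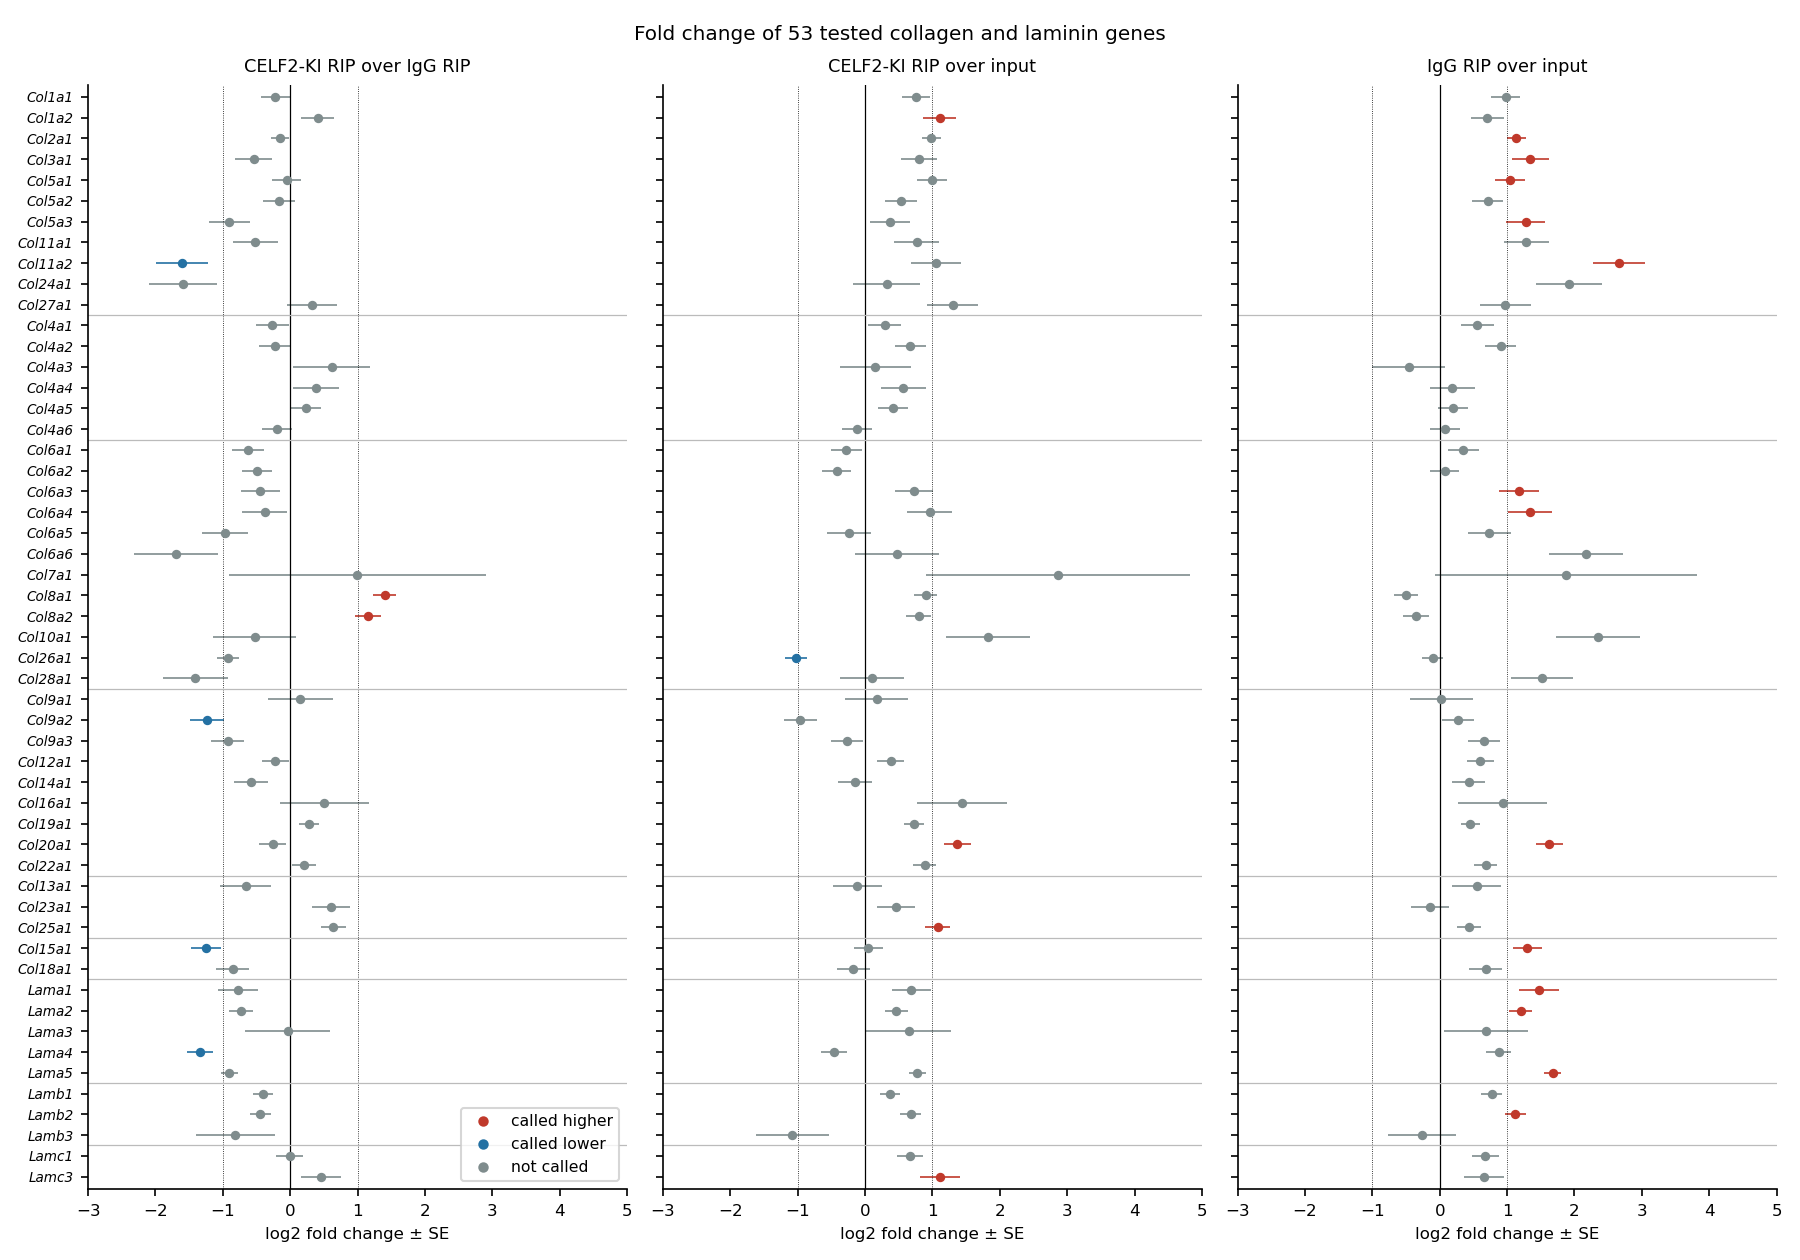
log2 fold change ± SE (edgeR, x axis) of 53 of the 54 tested members for the 3 comparisons, by class (grey lines), with colours for genes called higher, lower or neither and dotted lines at 2-fold. Col8a1 and Col8a2 are the members called above IgG RIP, and most members lie to the right of 0 in IgG RIP over input.

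CELF2-KI RIP against input asks which mRNAs were enriched by the pull-down over the starting fraction. Here 4 members were called higher, against 14.6% of all tested genes, and 1 was called lower, against 15.5% of all. The median of the members was 0.55, against 0.19 over all tested genes. Estimates above 0 were found for 41 of 54 members, against 8616 of all 15267 tested genes. At an unadjusted p under 0.05, 26 members were higher (48.1% of members, against 37.2% of all tested genes) and 3 were lower (5.56%, against 27.3%).

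The 4 members called higher than input were Col20a1, Lamc3, Col1a2 and Col25a1. Col20a1, a fibril-associated collagen, measured 8.30, 8.27 and 9.93 CPM in input, 31.7, 31.2 and 19.1 CPM after IgG RIP and 21.7, 21.5 and 25.3 CPM after CELF2-KI RIP, a log2 change of 1.37 ± 0.20 over input (adjusted p = 0.000229, edgeR). All counts of Col20a1 lay on predicted rows, with 0 on its curated row in every library, so it was not tested on curated rows alone. Lamc3, the gamma chain of cortical pial laminins, measured 34.7, 55.2 and 65.6 CPM in input, 60.4, 100.01 and 86.1 CPM after IgG RIP and 71.6, 129 and 137 CPM after CELF2-KI RIP, a log2 change of 1.12 ± 0.30 (adjusted p = 0.00805, edgeR). For both genes CELF2-KI RIP overlapped IgG RIP, and IgG RIP overlapped input for Lamc3 and lay above it for Col20a1. The changes over IgG RIP were -0.26 ± 0.20 for Col20a1 and 0.46 ± 0.30 for Lamc3. Col1a2 rose by 1.11 ± 0.25 on the log2 scale over input (adjusted p = 0.00298, edgeR) and stood at 0.40 ± 0.24 over IgG RIP.

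Col25a1, a transmembrane collagen made by neurons whose shed ectodomain binds amyloid, measured 33.0, 38.8 and 30.3 CPM in input, 46.4, 50.4 and 41.6 CPM after IgG RIP and 57.1, 91.5 and 66.8 CPM after CELF2-KI RIP. Each of its CELF2-KI RIP libraries exceeded the 6 controls, and the log2 fold change was 1.08 ± 0.18 over input (adjusted p = 0.000528, edgeR) and 0.64 ± 0.18 over IgG RIP (adjusted p = 0.0126, edgeR). On curated transcript rows alone Col25a1 stood at 1.16 over IgG RIP and 1.28 over input and was called in both. Col23a1, the other transmembrane collagen tested at over 10 CPM, measured 23.8, 29.8 and 40.8 CPM in input, 23.4, 24.98 and 37.2 CPM after IgG RIP and 40.6, 30.4 and 59.3 CPM after CELF2-KI RIP, and overlapped both controls.

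The calls over input depended on the libraries and the scaling. Over 20 alternatives the call above input was lost in 15 for Lamc3, in 13 for Col1a2 and in 11 for Col25a1. For Col20a1 it was lost in 3 of the alternatives in which the gene was tested. Without CELF2-KI RIP replicate 1, which was the lowest of its group for Col1a2 and Lamc3, 9 members were called higher, without IgG RIP replicate 3 the count was 8, and without CELF2-KI RIP replicate 2 or 3, or input replicate 1 or 2, it was 1 or 2. Scaling by total counts left 0 called higher and shifted the median of all genes from 0.19 to -0.27. The median of the members moved with it, from 0.55 to 0.09.

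Col26a1 (chr5:136741759-136883376), an Emilin-related collagen, was the member called lower than input. It measured 33.9, 51.4 and 40.5 CPM in input, 39.9, 42.0 and 35.2 CPM after IgG RIP and 20.5, 20.9 and 20.5 CPM after CELF2-KI RIP, so all CELF2-KI RIP libraries lay below all 6 controls. The log2 fold change was -1.02 ± 0.16 over input (adjusted p = 0.000365, edgeR) and -0.92 ± 0.16 over IgG RIP (adjusted p = 0.000873, edgeR), and IgG RIP differed from input by -0.10 ± 0.16. The transcript rows of Col26a1 divided unevenly between the groups. Its curated row held 717.44, 1451.68 and 603.02 estimated counts in input, 24.96, 48.08 and 21.67 after IgG RIP and 0, 0 and 0.01 after CELF2-KI RIP. As a share of the gene's counts, the curated row made up 33.6%, 31.1% and 24.1% in input against 3.91%, 11.3% and 4.41% after IgG RIP. In CELF2-KI RIP nearly all counts lay on 1 predicted row, with 256.4, 266.25 and 229.98 counts. The same row held 1081.55, 2223.32 and 1256.12 counts in the deeper input libraries. Another predicted row held 320.45, 824.97 and 370.97 counts in input and 0 in every RIP library. The difference of CELF2-KI RIP from input thus lay largely in rows with few or no counts in CELF2-KI RIP. The split of reads between overlapping isoforms is an estimate of the counting program and carries no error in the table.

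No member was called higher in CELF2-KI RIP than both controls, against 7.58% of all tested genes, and none was called lower than both, against 9.54% of all. In edgeR's test at an unadjusted p under 0.05 in both comparisons, 3 members were higher (Col8a1, Col8a2 and Col25a1, against 24.2% of all tested genes) and 3 were lower (Col9a2, Col26a1 and Lama4, against 20.0% of all). DESeq2 called 0 members higher and 1 lower than both. Every CELF2-KI RIP library exceeded every control for Col8a1, Col8a2 and Col25a1, 5.56% of the members against 25.2% of all tested genes, and below all controls for Col9a2 and Col26a1, 3.70% of the members against 19.9% of all.

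The comparison of IgG RIP with input measures what the control antibody and beads recover. Here 13 members were called higher, 24.1% of the members against 6.79% of all tested genes, and 0 were called lower, against 5.0% of all. The median log2 fold change of the members was 0.71, against -0.00 over all tested genes. Estimates above 0 were found for 47 of 54 members, against 7606 of all 15267 tested genes. At an unadjusted p under 0.05 in edgeR's test, 35 members were higher (64.8% of members, against 24.8% of all tested genes) and 1 was lower (1.85%, against 24.2%). DESeq2 called 16 higher and 0 lower. The comparison shares its IgG RIP libraries with the first comparison and its input libraries with the second.

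The 13 members were Col2a1, Col3a1, Col5a1, Col5a3 and Col11a2 of the 11 fibrillar collagens, Col6a3 and Col6a4, the fibril-associated Col20a1, the multiplexin Col15a1, and the laminin chains Lama1, Lama2, Lama5 and Lamb2. With replicate number as a block Col6a4 was not called, and Col11a1 was called in its place. Over 20 alternatives the call was lost in 16 for Col6a4, in 13 each for Col5a3 and Col6a3, and in 0 for Lama5. Lama5, the alpha chain of laminin-511 in mature vascular and early embryonic basement membranes, measured 39.8, 40.2 and 40.2 CPM in input, 142, 131 and 112 CPM after IgG RIP and 68.6, 60.0 and 77.1 CPM after CELF2-KI RIP. The 3 groups did not overlap, and the log2 fold change of IgG RIP over input was 1.68 ± 0.13 (adjusted p = 5.69e-05, edgeR). Lama1, the alpha chain of the pial and early embryonic basement membrane, measured 45.2, 68.8 and 84.2 CPM in input, 124, 185 and 239 CPM after IgG RIP and 74.9, 109 and 135 CPM after CELF2-KI RIP, with a change of 1.47 ± 0.30 in IgG RIP over input (adjusted p = 0.00398, edgeR).

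Among the other members with the largest changes, IgG RIP exceeded input by 2.66 ± 0.38 for Col11a2, 1.63 ± 0.20 for Col20a1 and 1.35 ± 0.28 for Col3a1 on the log2 scale. On curated transcript rows alone Col11a2 stood at 0.16 over input in IgG RIP and was not called. The other 8 members lay between 1.05 (Col5a1) and 1.34 (Col6a4). Col1a1 at 0.98 ± 0.21, Lama4 at 0.88 ± 0.19 and Lamb1 at 0.77 ± 0.16 passed the FDR and not the 2-fold threshold. Type IV collagens had no member called, and their largest estimate was 0.90 ± 0.23 for Col4a2. The number called was 6 without input replicate 1, 7 without input replicate 2 and 8 without IgG RIP replicate 2, and 3 on curated transcript rows alone (Col2a1, Lama5 and Lamb2), where fewer genes were called overall and the median of the members was 0.83.

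**Figure D3:**
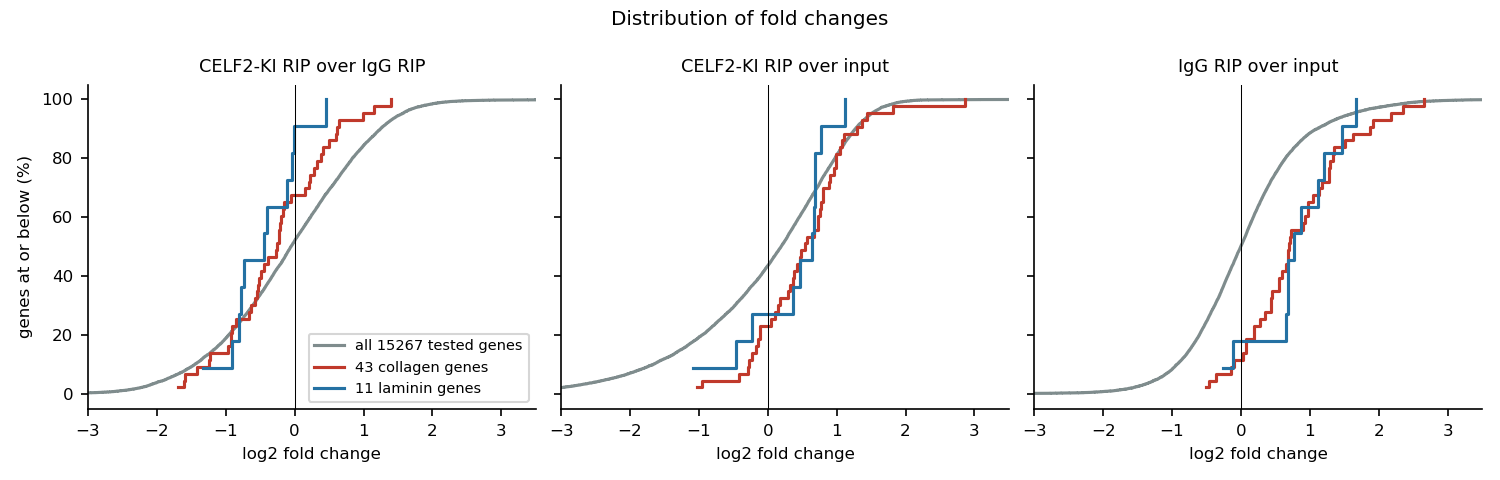
Cumulative share of genes (y axis, %) at or below each log2 fold change (x axis) for all 15267 tested genes, 43 collagen genes and 11 laminin genes in the 3 comparisons. In IgG RIP over input both families lie to the right of all genes, with medians of 0.70 and 0.77 against -0.00.

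Of the 9 classes, the laminin alpha chains had the highest ratio of summed IgG RIP to input CPM. Their summed CPM were 196, 251 and 276 in input, 488, 598 and 668 after IgG RIP and 267, 303 and 375 after CELF2-KI RIP. All 5 chains had an estimate below 0 over IgG RIP, though that of Lama3, at -0.04 ± 0.64, did not differ from 0. The multiplexins Col15a1 and Col18a1, precursors of antiangiogenic fragments, summed to 66.3, 96.6 and 99.8 CPM in input, 133, 152 and 178 CPM after IgG RIP and 68.3, 75.1 and 96.8 CPM after CELF2-KI RIP. Col18a1 alone, the source of endostatin, measured 51.9, 79.2 and 82.5 CPM in input, 80.5, 114 and 149 CPM after IgG RIP and 54.6, 58.1 and 76.6 CPM after CELF2-KI RIP, with -0.86 ± 0.25 over IgG RIP and no call. The sum of the 3 transmembrane collagens tested, carried by Col25a1 and Col23a1, was highest in CELF2-KI RIP, at 59.3, 73.1 and 76.4 CPM in input, 73.8, 83.1 and 85.2 CPM after IgG RIP and 101, 125 and 131 CPM after CELF2-KI RIP. Col13a1, the third of them, was not called in any comparison, with estimates of -0.66 over IgG RIP and -0.12 over input.

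The sums of the fibril-associated collagens overlapped between the RIPs and lay above input in both, at 198, 218 and 212 CPM in input, 351, 367 and 281 CPM after IgG RIP and 259.6, 287 and 345 CPM after CELF2-KI RIP. Col12a1, which decorates type I fibrils, measured 66.5, 73.1 and 90.3 CPM in input, 94.9, 114 and 140.0 CPM after IgG RIP and 83.3, 89.7 and 127 CPM after CELF2-KI RIP. Col9a3, the partner of Col9a2, measured 39.0, 44.4 and 35.7 CPM in input, 77.5, 70.2 and 40.3 CPM after IgG RIP and 36.2, 25.3 and 37.2 CPM after CELF2-KI RIP. IgG RIP replicate 3 was the lowest of its group for both collagen IX chains. The other members of the class were Col19a1 (25.4 to 50.4 CPM), Col22a1 (10.2 to 25.5 CPM), Col14a1 (4.08 to 8.42 CPM) and Col9a1 (0.932 to 4.26 CPM), with Col13a1 among the transmembrane collagens at 2.40 to 7.63 CPM.

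A few members varied between replicates far beyond the spread of the others. Col16a1 measured 23.0, 27.6 and 14.6 CPM in input, 57.8, 62.9 and 4.52 CPM after IgG RIP and 45.2, 65.2 and 66.8 CPM after CELF2-KI RIP. Col7a1, the anchoring fibril collagen of skin, measured 0, 0 and 3.83 CPM in input, 0.188, 13.4 and 0.788 CPM after IgG RIP and 0, 14.4 and 13.3 CPM after CELF2-KI RIP, with standard errors of 1.90 to 1.96 on the log2 scale, so no difference was detectable. Lama3 measured 9.57 and 11.9 CPM in IgG RIP replicates 1 and 2 and 0.932 CPM in replicate 3. Col10a1, the collagen of hypertrophic cartilage, stayed between 0.226 and 3.00 CPM, and Col28a1 between 0.693 and 4.66 CPM.

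Replicate 1 stood low for many members in every group. For 14 of 54 members (25.9%) replicate 1 was the lowest library in CELF2-KI RIP, in IgG RIP and in input alike, compared with 4.09% of all tested genes, and the corresponding count was 1 member each for replicates 2 and 3. The 14 were Col1a1, Col1a2, Col3a1, Col4a1, Col4a2, Col5a1, Col6a3, Col12a1, Col18a1, Col22a1, Lama1, Lama2, Lamc1 and Lamc3, which include the members with the highest CPM. In input the members together summed to 2706 CPM in replicate 1 and to 3694 and 3904 CPM in replicates 2 and 3. In input, replicate 1 was also the lowest for the summed endothelial markers, with 274, 427 and 419.9 CPM, and for the summed markers of meningeal and perivascular fibroblasts, with 672, 802 and 786 CPM, and the part of cell composition in the members' levels was not tested.

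Ratios between chains that assemble together do not depend on the scaling of a library, since both chains are counted in the same library and gene length cancels between libraries. With 13 pairs and 3 libraries against 3, the exact permutation test (two-sided) cannot give a p below 0.10, so the ratios are given as values. The Col1a2 to Col1a1 ratio of counts was 0.991, 1.02 and 1.03 in input, 0.760, 0.7995 and 0.9499 after IgG RIP and 1.25, 1.27 and 1.34 after CELF2-KI RIP. The 3 groups did not overlap, with CELF2-KI RIP above and IgG RIP below input, a difference of 0.63 on the log2 scale between the RIPs (p = 0.1, exact permutation test). The mRNAs of the type I collagen chains thus stood in a different proportion in each group of these libraries.

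The chains with a shared start gave another pattern. The Col4a2 to Col4a1 ratio was 0.9299, 0.878 and 0.9602 in input, below every RIP library, while 1.19, 1.17 and 1.16 after IgG RIP overlapped 1.20, 1.28 and 1.15 after CELF2-KI RIP. The Col8a2 to Col8a1 ratio overlapped between all 3 groups, at 1.59, 2.05 and 1.91 in input, 1.48, 2.74 and 2.08 after IgG RIP and 2.096, 1.29 and 1.905 after CELF2-KI RIP, and the Col9a3 to Col9a2 ratio was 3.97 to 4.35 in CELF2-KI RIP, 2.98 to 3.74 in IgG RIP and 2.27 to 2.75 in input. Relative to Col6a1, Col6a3 stood at 1.52 to 2.70 in CELF2-KI RIP and 1.45 to 2.11 in IgG RIP, and at 0.976 to 1.03 in input. The ratios of Col4a6 to Col4a5, Col5a2 to Col5a1 and Col6a2 to Col6a1 overlapped between the RIPs and lay below input in CELF2-KI RIP.

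Relative to Lamc1, with which they form trimers, Lama2, Lama4 and Lama5 were lower in each CELF2-KI RIP library than in any IgG RIP library. All laminin ratios are divided by Lamc1, so they are not separate observations. The Lama4 to Lamc1 ratio was 0.291, 0.315 and 0.289 in input, 0.322, 0.374 and 0.3305 after IgG RIP and 0.161, 0.1253 and 0.1298 after CELF2-KI RIP. CELF2-KI RIP thus lay below both controls for Lama4, by 1.31 and 1.11 on the log2 scale (p = 0.1 for each, exact permutation test). The Lama2 to Lamc1 ratio was 0.198 to 0.236 in CELF2-KI RIP, 0.339 to 0.358 in IgG RIP and 0.2303 to 0.253 in input, and the Lama5 to Lamc1 ratio was 0.1598 to 0.229, 0.244 to 0.445 and 0.143 to 0.202, with CELF2-KI RIP below IgG RIP and overlapping input for both. The Lamb1 and Lamb2 ratios to Lamc1 were 0.509 to 0.693 and 0.397 to 0.569 in CELF2-KI RIP, below 0.710 to 0.759 and 0.585 to 0.631 in IgG RIP.

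**Figure D4:**
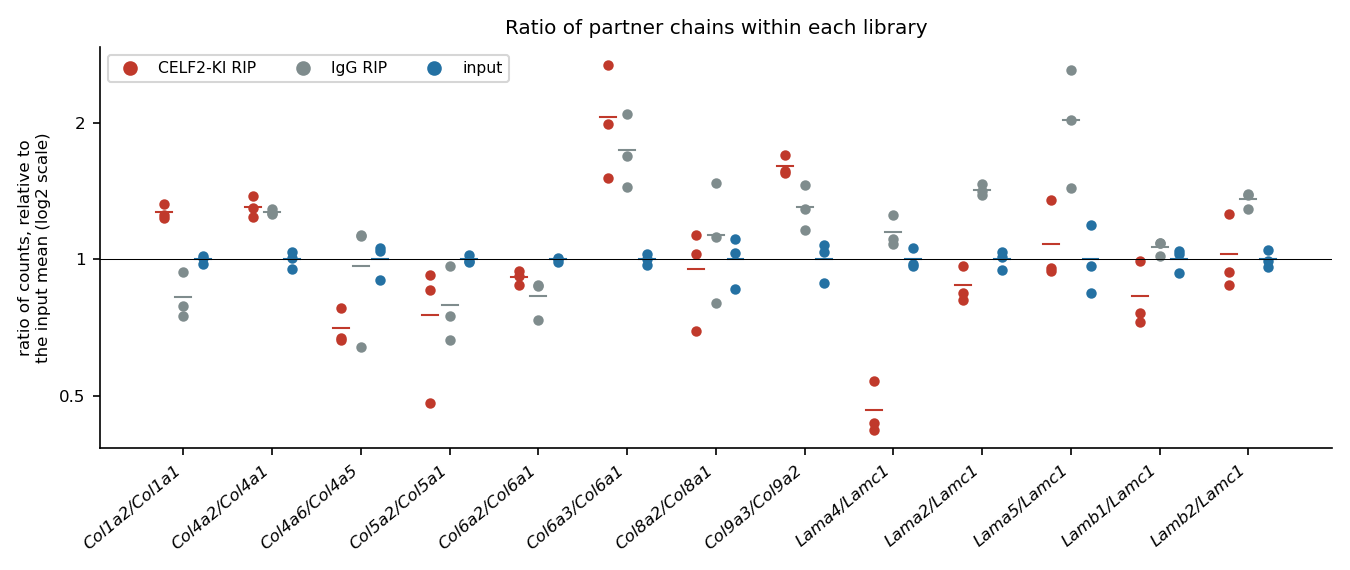
Ratio of counts of partner chains within each library, relative to the mean ratio in input (y axis, log2 scale), for 13 pairs, with a point per library and a line at the mean of 3 libraries. Lama4 relative to Lamc1 is lowest in CELF2-KI RIP, and Col1a2 relative to Col1a1 is highest there and lowest in IgG RIP.

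Genes that act on collagens and laminins were compared by lists. Over all tested genes, 13.4% were called higher and 13.6% lower in CELF2-KI RIP than IgG RIP. Of 28 collagen-modifying enzymes and chaperones, 2 were called higher and 6 lower in CELF2-KI RIP than IgG RIP, with a median of -0.13. Those with the largest change were Plod3, a lysyl hydroxylase (-2.06), Ppib, a prolyl isomerase of the endoplasmic reticulum (-2.04), Pcolce, an enhancer of procollagen cleavage (-1.57), and P3h3, a prolyl 3-hydroxylase family member (-1.46). Ppib measured 149, 161 and 148 CPM in input, 60.4, 73.5 and 91.8 CPM after IgG RIP and 21.4, 16.9 and 16.5 CPM after CELF2-KI RIP, and Ppib and Pcolce were called lower than both controls. Of the 13 other basement membrane components 1 was called higher, Npnt, an integrin ligand (1.30), and 3 were called lower, Tinagl1 (-2.29), the matricellular Sparc (-1.65) and fibronectin, Fn1 (-1.49).

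Of 15 tested collagen and laminin receptors, 1 was called higher than IgG RIP, the adhesion receptor Adgrg6 (1.08), and 0 were called lower. The shares of all tested genes were 13.4% higher and 13.6% lower. Of 11 genes of the neural matrix and reelin pathway, 4 were called higher than IgG RIP: the reelin receptors Vldlr (1.38) and Lrp8 (1.17), the proteoglycan Ncan (1.24) and the link protein Hapln1 (1.15). Vldlr, Lrp8 and Ncan were also called higher than input. Ncan measured 6169.7, 7205 and 6871 CPM in the 3 CELF2-KI RIP libraries, where no collagen or laminin exceeded 844 CPM. It was already at 3130, 2944 and 2911 CPM in input, where no collagen or laminin exceeded 488 CPM.

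Marker genes of the cells that the cortex holds gave the setting of these values. Of all tested genes, 13.4% were called higher and 13.6% lower in CELF2-KI RIP than IgG RIP. For CELF2-KI RIP over input these shares were 14.6% and 15.5%, and for IgG RIP over input 6.79% and 5.0%. Of 12 markers of meningeal and perivascular fibroblasts, the main makers of fibrillar collagens, 0 were called higher and 2 lower (Postn and Ogn) in CELF2-KI RIP than IgG RIP, 0 and 6 than input, and 0 and 4 in IgG RIP than input. Their summed CPM were 529 to 565 in CELF2-KI RIP, 434 to 543 in IgG RIP and 672 to 802 in input, so they were below input in both RIPs while the fibrillar collagens summed to 1389.6 to 2463, 1709 to 2353 and 800.4 to 1175 CPM. Of 10 endothelial markers 3 were called lower in CELF2-KI RIP than IgG RIP and 0 changed in IgG RIP over input, with sums of 229 to 325, 219 to 475 and 274 to 427 CPM. Of 9 pericyte and mural cell markers, 0 were called higher and 3 lower in CELF2-KI RIP than IgG RIP, and 1 and 3 than input. Their summed CPM were nevertheless highest in CELF2-KI RIP, at 907 to 1026, against 720 to 850 in IgG RIP and 647 to 738 in input. That sum does not describe most of the list. Only 3 of the 9 markers had an estimate above 0 over IgG RIP, and 3 over input. The median log2 changes were -0.56 and -0.33. None of the fibroblast, endothelial or mural lists had all its markers at 0 in any group.

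Of 9 excitatory neuron markers, 4 were called higher in CELF2-KI RIP than IgG RIP and 0 lower, and of 9 radial glia markers 0 were higher and 4 lower. Over all tested genes the shares were 13.4% higher and 13.6% lower. Of 6 tested microglia markers 1 was higher and 2 were lower, and all 5 tested erythroid markers were lower. The erythroid sum was 877 to 1135 CPM in input, 366 to 584 CPM in IgG RIP and 92.7 to 95.0 CPM in CELF2-KI RIP. The part of these differences in the values of collagens and laminins was not tested.

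**Figure D5:**
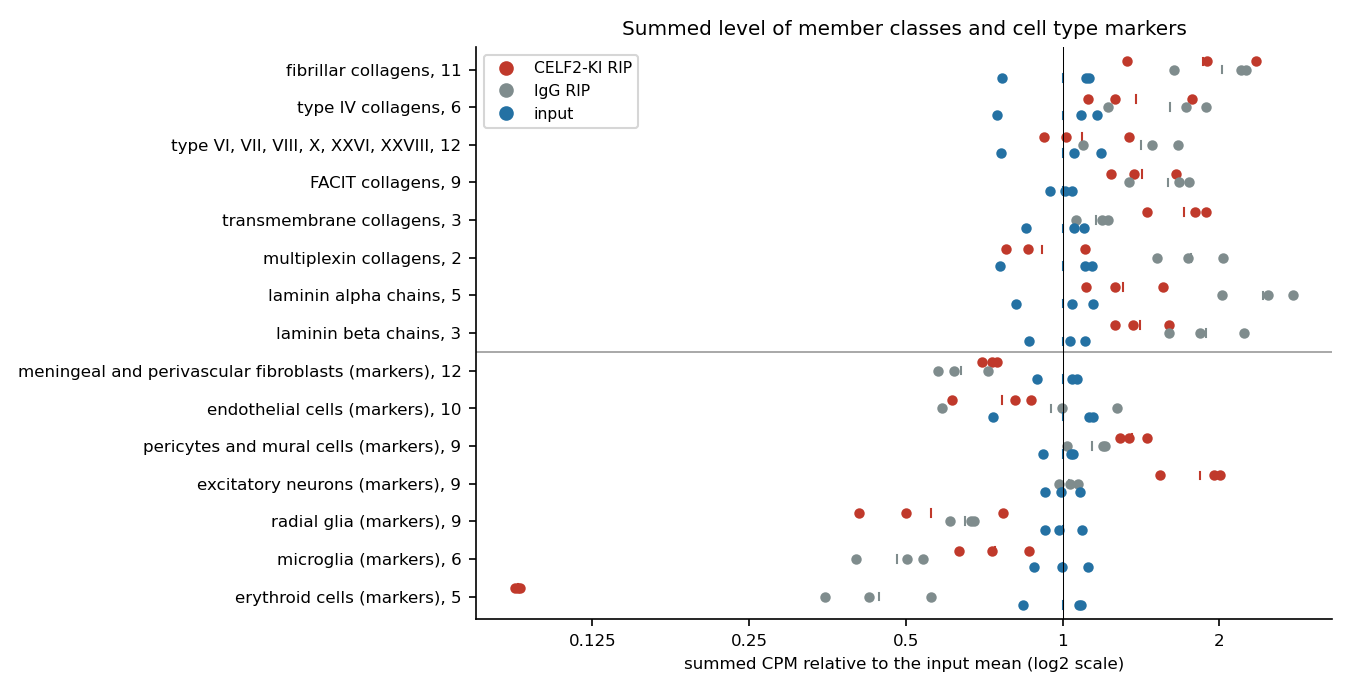
Summed CPM of 8 of the 9 member classes (upper rows) and each list of cell type markers (lower rows), relative to the input mean (x axis, log2 scale), with a point per library, a line at the mean and the number of tested genes after each name. Of the classes drawn, laminin alpha chains lie furthest right in IgG RIP, while fibroblast markers lie left of input in both RIPs.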

How the data were processed

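The authors depleted rRNA, checked reads with FastQC 0.11.9, trimmed them with fastp 0.23.4, removed rRNA reads with Ribodetector 0.3.1 and quantified transcripts with Kallisto 0.51.1. They deposited estimated counts per RefSeq transcript for 9 libraries, not normalized. Here 86722 of 107384 transcript rows were matched by accession to RefSeq genes (GRCm38.p6), summed per gene and rounded. Unmatched rows, which may include isoforms of members, were left out. Genes coding for protein were kept where 3 or more libraries reached 0.5 CPM and tested with edgeR 4.0.16 (quasi-likelihood, TMM, 1 mean per condition, Benjamini-Hochberg adjustment) in R 4.3.3, and with DESeq2 1.42.0 as an alternative. Tables and plots used Python 3.11.15 with scipy and matplotlib. Members and lists were chosen with earlier results of these data known. The genes named with values per library are the 5 largest called changes per direction in each comparison, the 2 members with the highest input CPM in each class, and members that varied most, which were chosen after their values were seen, as were the 13 chain pairs. Of other lists, up to 4 genes called against IgG RIP are named. Transcript lengths were not used here, so CPM are not compared per length between genes. Reads carry no molecular identifiers, and errors cover the spread of these libraries only. The steps were run on simulated data in which few genes changed, split evenly between higher and lower. The dependence on scaling was not tested there. To see whether replicate numbers link the groups, deviations of same-numbered libraries from their group means were correlated across 14190 genes. Input against CELF2-KI RIP gave 0.127, 0.109 and 0.132 for replicates 1, 2 and 3. IgG RIP gave -0.059, 0.032 and 0.008 against CELF2-KI RIP, and 0.032, 0.088 and 0.037 against input. Differently numbered libraries were not correlated, so these small values cannot decide which groups are paired by number. Replicate 1 was the lowest library in all 3 groups, IgG RIP included, for 25.9% of members against 4.09% of all tested genes. The block was an alternative. The values of 1 member are not reported here, though counts over the members include it.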

Additional observations from a re-analysis of the deposited data

How the results depend on the processing

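Counts of called members and medians were recomputed under the alternatives. Calls of members above IgG RIP (2) were 1 with upper-quartile factors, total counts or TMM over coding and noncoding genes, and 3 on curated transcripts. Calls below IgG RIP (4) were 9, 13 and 9 under those 3 scalings. Calls above input (4) were 1 with DESeq2 size factors, upper-quartile factors or no filter, 0 with total counts or noncoding genes included, and 2 with DESeq2. Calls below input (1) were 2 in each of these and 3 with only the 2 groups compared. Members higher than both controls (0) were 1 on curated transcripts. Members lower than both (0) were 1 with DESeq2 size factors, DESeq2, only the 2 groups compared or curated transcripts, and 2 with upper-quartile factors, total counts, noncoding genes included or no filter. IgG RIP over input (13) gave 7 with noncoding genes included and 3 on curated transcripts. A test against a 2-fold change (glmTreat) called 0 members in CELF2-KI RIP over either control and 1, Lama5, in IgG RIP over input.

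The median over IgG RIP (-0.32) moved to -0.59 with upper-quartile factors and -0.69 with total counts, and that over input (0.55) to 0.0935 with total counts and 0.17 with noncoding genes included. These scalings also moved the median of all tested genes, over IgG RIP from -0.06 to -0.32 and -0.42, and over input from 0.19 to -0.27 and -0.20. Leaving out 1 library at a time gave 2 members above and 3 to 8 below IgG RIP, 1 to 9 above and 0 to 2 below input, 0 to 1 higher and 0 to 2 lower than both controls, and 6 to 16 above and 0 below input in IgG RIP, with medians of -0.48 to -0.21, 0.33 to 0.67 and 0.6043 to 0.83. With the replicate block, 2 members were above and 3 below IgG RIP, 4 above and 1 below input, 0 higher or lower than both, and 13 above input in IgG RIP. The block ended the call of Col11a2 below IgG RIP, and in IgG RIP over input Col11a1 was called in place of Col6a4. Col11a2 over IgG RIP turned from -1.61 to 0.43 on curated transcripts. The cause of these moves was not tested, except that glmTreat sets a stricter criterion by construction. Standard errors reached 1.96 on the log2 scale for Col7a1, for which a 2-fold change was not detectable.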
